A study of Camponotus floridanus with 3 samples.

Results

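In the whole bodies of Camponotus floridanus, the Florida carpenter ant, 161 transcripts were abundant in both sequenced workers and low in the queen. They were picked from 16701 features with a plain 5-digit number in their ID, out of 17323 features in all. A member had at least 10 RPKM in both workers, and in the queen less than 100 RPKM and at most 0.25 of the lower worker value. RPKM is a read count scaled by the length of the feature and by the depth of the library. It makes no allowance for how a library's reads are spread over features, and the libraries here differed in that. The values of all 3 libraries chose the members, so the gap between workers and queen describes them and carries no test.

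The series holds 2 worker libraries and 1 queen library of poly(A) RNA, each from 1 snap-frozen ant. All came from untreated laboratory colonies that had a queen, and no strain, genotype or age is given in the sources used here. One worker was a major, the big-headed worker form, and the other a minor. Which is which is not told, so they are called worker 1 and worker 2 by their replicate numbers. Whether they shared a nest with the queen is not told either.

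In ants, queens and workers are females that can develop from the same genome, and they differ mainly in which genes they use. A laying queen carries large ovaries, while workers care for brood, forage and guard the nest with largely inactive ovaries. In RNA of a whole body, fewer cells of a type and less RNA per cell cannot be told apart. Of the 161 member IDs, 0 occur in RefSeq's gene table (assembly Cflo_v7.5), so members are called by ID and no function is given. For the same reason the libraries were not checked against markers of tissues or castes.

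The libraries differed in depth and in how evenly reads were spread. Read totals, recovered from the steps of the RPKM values, were 6688533 in worker 1, 13773937 in worker 2 and 16914235 in the queen. Over 9600 features that averaged 1 RPKM or more, the median was 1.42 RPKM in worker 1, 7.31 in worker 2 and 15.8 in the queen. By median-of-ratios factors (the median of each library's ratio to the geometric mean over features) the queen's typical value was 8.79-fold that of worker 1 and 2.01-fold that of worker 2. The members thus lie against the general direction of these values. Scaling by the factors would widen the gap of each member: 161 of 161 stayed at least 4-fold below both workers in the queen, and 157 still met every part of the rule. The other 4 then had less than 10 in worker 2. With 1 worker at a time the rule took 600 features without worker 1 and 216 without worker 2.

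Both workers were at least 4-fold above the queen in 3.77% of the 9499 numbered features that averaged 1 RPKM or more, and in 12.7% after median-of-ratios scaling. Of the 1382 numbered features with at least 10 RPKM in both workers the share was 12.3% as deposited and 28% after scaling. The members are the part of this 12.3% that lay under 100 RPKM in the queen. They made up 6.35% of 598 features whose lower worker value was from 10 to under 20 RPKM, 10.7% of 391 from 20 to under 50, 15.4% of 162 from 50 to under 100, 25.7% of 183 from 100 to under 500, and 18.8% of 48 at 500 RPKM or more. The limit of 100 RPKM in the queen left out 9 more features, all in the last of these classes. Up to that limit, a higher lower worker value lets a member have a higher queen value. A rise of these shares with the lower worker value is therefore in part built into the rule.

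**Figure D1:**
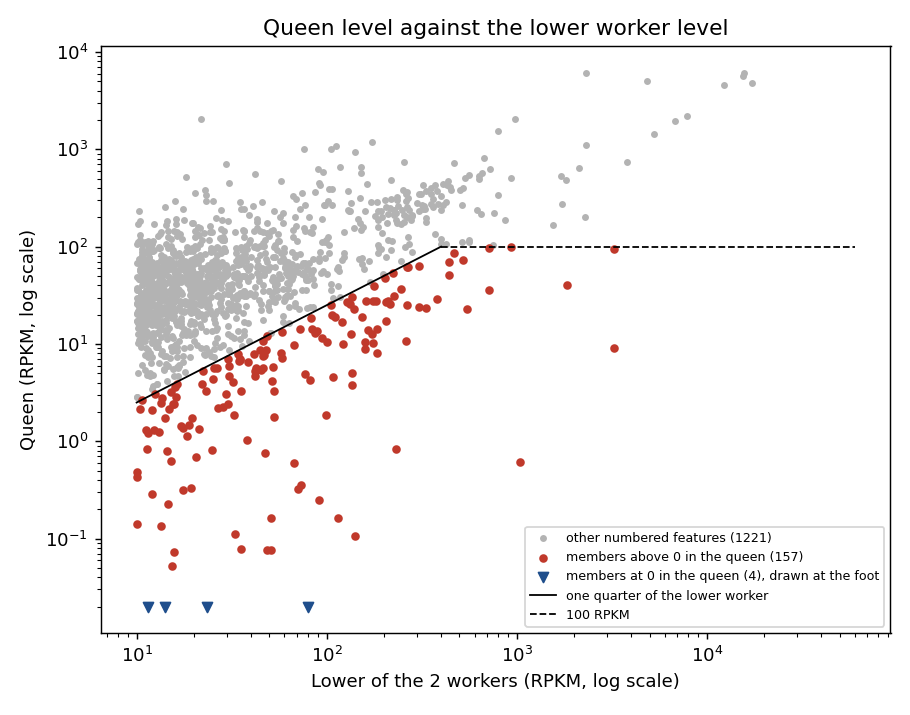
Level in the queen (vertical) against the level in the lower of the 2 workers (horizontal), both in RPKM on log scales, for the 1382 numbered features with both workers at 10 RPKM or more. Red points are the 157 members above 0 in the queen, blue triangles at the foot the 4 members at 0, and the lines are the limits of the rule; members reach from just under the 4-fold line to the point of Cflo_00610, whose queen value is 0.606 RPKM at a lower worker value of 1041.

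Among members the median level was 77.4 RPKM in worker 1, 79.0 in worker 2 and 5.31 in the queen. The quartiles were 26.8 and 175 RPKM in worker 1, 38.7 and 226 RPKM in worker 2, and 1.37 and 14.3 RPKM in the queen. The median difference of the workers' mean from the queen was 3.48 on the log2(RPKM + 1) scale, against -1.60 over the 9499 numbered features above. After median-of-ratios scaling the same medians were 5.09 for members and 0.0024 for all. These medians follow from the rule.

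The 161 members held 9.80% of the RPKM sum in worker 1, 13.7% in worker 2 and 0.553% in the queen. Their share of the read total, by recovered reads, was 4.29% in worker 1, 6.40% in worker 2 and 0.263% in the queen. An RPKM sum gives a read in a short feature more weight than a read in a long one. Of the 100 highest features of each library, 20 were members in worker 1, 24 in worker 2 and 0 in the queen. A few members carried much of this: the 5 highest made up 57.7% of the members' sum in worker 1 and 46.7% in worker 2. Without Cflo_06752 and Cflo_02738 the members' share of the RPKM sum was 5.47% in worker 1 and 10.5% in worker 2, against 0.525% in the queen. That the queen's share is the lowest follows from the rule. The limit of 100 RPKM also fixes the 0 among the queen's 100 highest features. Cflo_04564, the highest member there at 98.0 RPKM, ranked 487th.

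**Figure D2:**
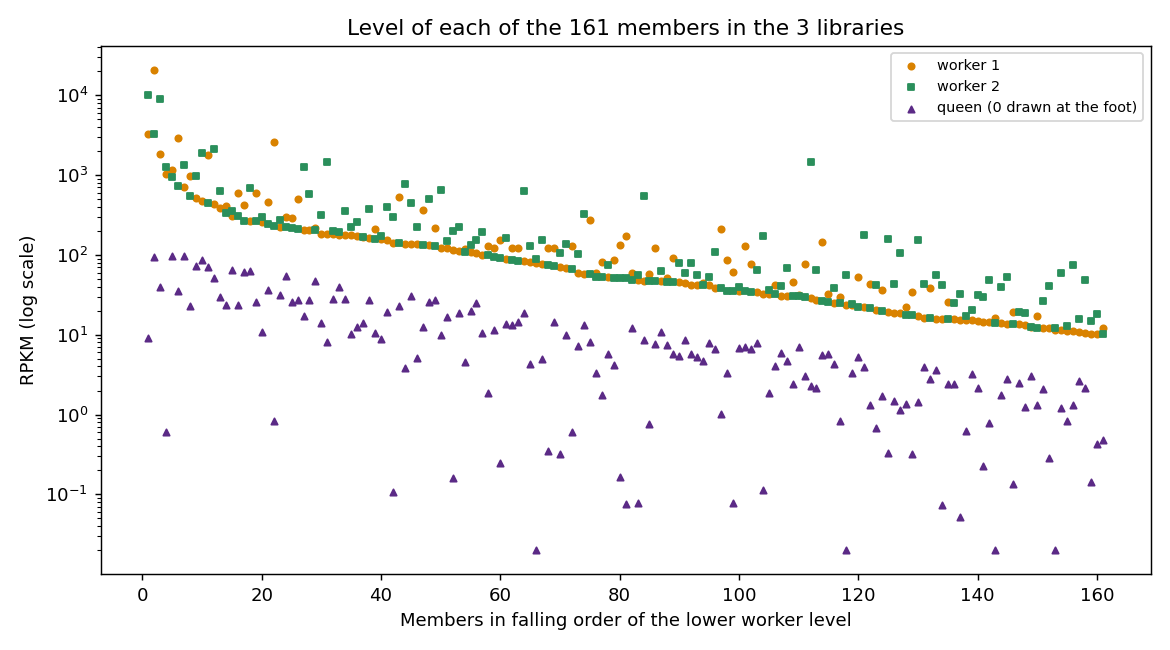
RPKM (log scale) of each of the 161 members in worker 1 (circles), worker 2 (squares) and the queen (triangles, with 0 drawn at the foot), in falling order of the lower worker value. The queen's points lie below both workers throughout, as the rule requires.

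Cflo_02738 had the highest lower worker value of all members. It was at 3257 RPKM in worker 1, 9908 RPKM in worker 2 and 9.10 RPKM in the queen, and it ranked 21st, 6th and 6260th among all features of the 3 libraries in that order. Reads recovered from the RPKM steps were 20108 in worker 1, 125966 in worker 2 and 142 in the queen. Worker 1 stood at 358 times the queen (95% interval 304 to 425) and worker 2 at 1089 times (924 to 1293). These intervals are exact conditional binomial intervals of 2 read counts. They cover counting error only and say nothing of the spread between ants.

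Cflo_06752 was the most abundant member in worker 1. It was at 20677 RPKM in worker 1, 3253 RPKM in worker 2 and 94.6 RPKM in the queen, close under the limit of 100. It alone made up 38.2% of the members' RPKM sum in worker 1. Both workers were above the queen, worker 1 at 219 times (202 to 237) and worker 2 at 34.4 times (31.7 to 37.4), so the size of the gap hung on which worker was used.

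Cflo_13895 had the workers in the other order, also after median-of-ratios scaling, at 1835 RPKM in worker 1, 9012 RPKM in worker 2 and 40.1 RPKM in the queen. Cflo_00610 was nearly level between the workers as deposited, at 1041 RPKM in worker 1, 1257 RPKM in worker 2 and 0.606 RPKM in the queen, where it rested on 10 reads. Worker 1 stood at 1719 times the queen (934 to 3586) and worker 2 at 2075 times (1128 to 4328). Among members above 0 in the queen, this was the widest gap between the lower worker and the queen.

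The other members among the 8 highest by the lower worker were spread over a wide range in the queen. Cflo_07214 was at 2877 RPKM in worker 1, 719 in worker 2 and 35.5 in the queen. Cflo_14550 was at 962 RPKM in worker 1, 546 in worker 2 and 23.0 in the queen. Cflo_04564 and Cflo_07130 had the highest queen values of all members, followed by Cflo_06752. Cflo_04564 was at 1149 RPKM in worker 1, 932 in worker 2 and 98.0 in the queen, a gap of 11.7-fold (10.8 to 12.7) to worker 1 and 9.51-fold (8.80 to 10.3) to worker 2. Cflo_07130 was at 713 RPKM in worker 1, 1337 in worker 2 and 96.8 in the queen, a gap of 7.37-fold (7.06 to 7.69) to worker 1 and 13.8-fold (13.3 to 14.4) to worker 2.

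The depth of the gap varied widely among members. The median ratio of the lower worker to the queen was 8.60 over the 157 members above 0 in the queen, with quartiles of 5.75 and 20.3. The lower worker was at least 10-fold the queen, or the queen was at 0, in 75 of 161 members. At 50-fold this held for 27, at 100-fold for 20 and at 1000-fold for 6, of which 4 were at 0 in the queen. In the queen 29 members were above 0 and under 1 RPKM, 73 from 1 to under 10 and 55 from 10 to under 100.

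In the queen 4 members were at 0. Cflo_03792 was at 80.2 RPKM in worker 1 and 88.8 RPKM in worker 2, from 163 and 372 reads. A count of 0 allows up to 3 reads, which for this feature of 304 bases is 0.583 RPKM in the queen, so with the queen set at 3 reads worker 1 was at least 137-fold higher and worker 2 at least 152-fold. These values leave out the counting error of the workers. The counting intervals against 0 reads start at 110.5-fold for worker 1 and 123-fold for worker 2. Its neighbour by number, Cflo_03793, was at 23.6 RPKM in worker 1 and 55.4 RPKM in worker 2, at least 37.1-fold and 87.2-fold above the queen set at 3 reads, with intervals that start at 28.9-fold and 70.3-fold. Both are short (304 and 279 bases), and neither had a read in the library with the highest read total.

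The other two members at 0 were less abundant. Cflo_09957 was at 16.0 RPKM in worker 1 and 14.1 RPKM in worker 2, at least 73.3-fold and 64.7-fold above the queen set at 3 reads, with intervals that start at 58.4-fold and 52.0-fold. Cflo_03468 was at 11.5 RPKM in worker 1 and 12.1 RPKM in worker 2, at least 34.6-fold and 36.4-fold by the same limit, with intervals that start at 26.9-fold and 29.0-fold. As deposited, the workers were within counting error of each other in both.

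Among the widest gaps above 0, the queen's value often rested on a single read. Cflo_08051 was at 140 RPKM in worker 1, 302 RPKM in worker 2 and 0.106 RPKM in the queen, from 525, 2325 and 1 reads. Its ratio to the queen was 1328 in worker 1 with an interval from 237 to 52538, and 2855 in worker 2 with an interval from 512 to 112817. The upper ends of such intervals are set by 1 read and say little. The lower ends lay far above 4-fold, in members that were picked for their wide gaps.

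Cflo_08170 was at 115 RPKM in worker 1, 197 in worker 2 and 0.162 in the queen, again from 1 read in the queen. Cflo_08198 was at 174 RPKM in worker 1, 50.9 in worker 2 and 0.0768 in the queen. Cflo_06293 was at 48.3 RPKM in worker 1, 56.3 in worker 2 and 0.0771 in the queen. The last 2 had 1 read each in the queen.

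Cflo_05050 was at 61.5 RPKM in worker 1, 35.3 in worker 2 and 0.0772 in the queen, from 1 read. Its recovered length of 766 bases is close to those of Cflo_06293 (767) and Cflo_08198 (770). Lengths in this range are common, with 339 features from 629 to 977 bases among those with both workers at 10 RPKM or more. Whether the 3 are related was not tested. Cflo_01119 was at 152 RPKM in worker 1, 90.8 in worker 2 and 0.251 in the queen, from 719, 884 and 3 reads. Its ratio to the queen was 606 in worker 1 (207 to 2946) and 362 in worker 2 (123 to 1758).

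Over all members, 30 had under 10 reads in the queen, 51 had from 10 to 99 and 80 had 100 or more. In the workers the lowest count was 16 reads in worker 1 and 37 in worker 2, with medians of 513 and 1229. The counting interval lay above 4-fold against both workers in 134 of the 161 members and reached below it in 27. No member's interval reached 1, and the lowest lower bound was 2.41. That bound was the one of Cflo_06039, at 12.6 RPKM in worker 1, 12.4 in worker 2 and 3.08 in the queen, from 39, 79 and 24 reads. The rule chose members by these same ratios at 4-fold, and the intervals make no allowance for that. These counts of intervals therefore describe the members and carry no test.

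At the 4-fold limit members passed into other features without a gap. Cflo_01016 was inside with a lower worker 4.02-fold the queen (10.7 RPKM in worker 1, 15.8 in worker 2 and 2.66 in the queen), as was Cflo_08217 (59.1, 48.5 and 12.1 RPKM in the same order of libraries) at 4.02-fold and Cflo_06039 at 4.04-fold. Just outside were Cflo_07211 at 3.96-fold, with 456 RPKM in worker 1, 170 in worker 2 and 43.0 in the queen, Cflo_10601 at 3.94-fold (51.3, 91.7 and 13.0 RPKM) and Cflo_14734 at 3.92-fold (51.9, 48.8 and 12.4 RPKM). The step between inside and outside is smaller than the counting error of Cflo_01016, whose interval against worker 1 ran from 2.57 to 6.36.

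The rule sets no limit on how far the workers may differ from each other. As deposited, 92 of 161 members (57.1%) were within 2-fold between worker 1 and worker 2, against 731 of the 1221 other numbered features with both workers at 10 RPKM or more (59.9%). At least 4-fold apart were 26 members (16.1%), against 10.9% of those 1221 features. Worker 1 was the higher by at least 4-fold in 7 members (4.35%), against 0.901% of the others, and the lower by as much in 19 (11.8%), against 9.99%. For 21 of the 26 the counting interval lay wholly beyond 4-fold. There is 1 ant of each worker type, in unknown order, and members were on the whole more abundant than the other features, so these shares carry no test and no direction by worker type.

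**Figure D3:**
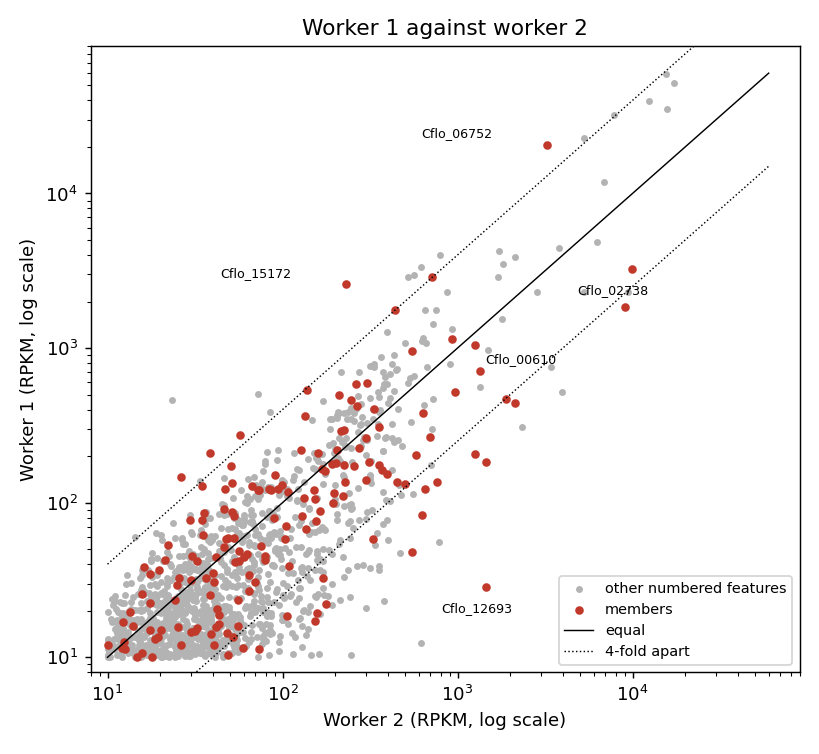
Level in worker 1 (vertical) against worker 2 (horizontal), in RPKM on log scales, for 161 members (red) and the 1221 other numbered features with both workers at 10 RPKM or more (grey). Dotted lines mark a 4-fold difference between the workers; 7 members lie beyond it on the side of worker 1 and 19 on the side of worker 2.

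The split of the 26 uneven members moved with the scaling. The typical value in worker 2 was 4.37-fold that in worker 1, and after median-of-ratios scaling 69 members were at least 4-fold apart, with 68 higher and 1 lower in worker 1. Of the other features 38.4% were then at least 4-fold apart, with 38.2% higher and 0.164% lower in worker 1. On the log2 scale the median of worker 1 over worker 2 was -0.32 for members and -0.46 for the other features as deposited, and 1.81 and 1.67 after scaling. The SD of this log2 ratio does not depend on scaling, and it was 1.36 over members and 1.11 over the others. Of the 36 features chosen to be named, 17 had the other worker on top after scaling.

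As deposited, Cflo_12693 was the member most uneven toward worker 2. It was at 28.5 RPKM in worker 1, 1460 RPKM in worker 2 and 2.27 RPKM in the queen, from 502, 52996 and 101 reads. Worker 2 was 51.3-fold worker 1 (46.9 to 56.1), and worker 1 in turn was 12.6-fold the queen (10.1 to 15.7). The next 2 members leaned the same way. Cflo_06172 was at 47.7 RPKM in worker 1, 548 in worker 2 and 8.65 in the queen, and Cflo_08843 was at 17.2 RPKM in worker 1, 154 in worker 2 and 1.42 in the queen. Their worker 2 levels were 11.5-fold (10.4 to 12.8) and 8.94-fold (7.19 to 11.2) those of worker 1.

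As deposited, Cflo_15172 was the most uneven toward worker 1. It was at 2584 RPKM in worker 1, 232 RPKM in worker 2 and 0.826 RPKM in the queen, from 6187, 1143 and 5 reads. Worker 1 was 11.1-fold worker 2 (10.5 to 11.9), and worker 2 was 281-fold the queen (120 to 866). Cflo_06752, described above, was 6.36-fold higher in worker 1 (6.25 to 6.47). Cflo_08488 was at 146 RPKM in worker 1, 26.5 in worker 2 and 5.60 in the queen, 5.54-fold higher in worker 1 (4.78 to 6.43). In each of these the queen stood below both workers, as the rule requires of every member.

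The rule did not use ID numbers. Of the 161 members, 27 (16.8%) had a member as the next number up or down, in 12 runs of 2 and 1 run of 3. Among features next to a member and with at least 10 RPKM in both workers, 28 of 64 (43.8%) were members, each pair being counted from both sides. Among features next to one of the other 1221 features and passing the same minimum, 36 of 410 (8.78%) were members. At a distance of 2 numbers the shares were 8.89% (4 of 45) and 12.4% (41 of 331), and members made up 11.6% of all 1382 features. Of 180 features next to a member that were not members and averaged 1 RPKM or more, 13 (7.22%) were at least 4-fold below both workers in the queen, against 2.11% of the 9338 numbered features at that mean that are not members. The sources used here do not say whether ID numbers follow the genome, and whether one transcript was split over neighbouring IDs was not tested.

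**Figure D4:**
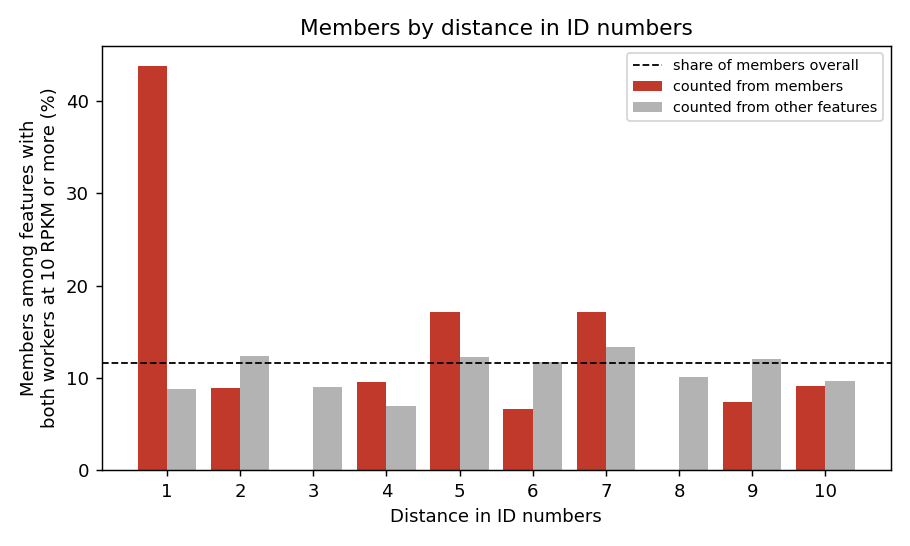
Share of members (percent, vertical) among numbered features with both workers at 10 RPKM or more, by distance in ID numbers (horizontal), counted from members (red) and from the other features (grey), with the overall share of 11.6% as a dashed line. At distance 1 the share is 43.8% counted from members and 8.78% counted from the others, and from 2 to 10 the red bars lie between 0% and 17.1%.

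The run of 3 was Cflo_14030, Cflo_14031 and Cflo_14032. Cflo_14030 was at 176 RPKM in worker 1, 356 in worker 2 and 27.7 in the queen. Cflo_14031 was at 136 RPKM in worker 1, 451 in worker 2 and 30.3 in the queen, and Cflo_14032 at 162, 371 and 27.4 RPKM in the same libraries. Within each library the 3 had similar levels. Worker 2 was above worker 1 in each of them as deposited, and below it in each after median-of-ratios scaling. Cflo_14031 and Cflo_14032 also had the same recovered length of 629 bases. Whether they are near-identical copies, with reads split between them by the counting, was not tested. In that case their single values would be uncertain.

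The run of 2 with the highest worker values was Cflo_10344 and Cflo_10345. Cflo_10344 was at 183 RPKM in worker 1, 1463 in worker 2 and 8.07 in the queen. Cflo_10345 was at 522 RPKM in worker 1, 970 in worker 2 and 72.8 in the queen. The next number, Cflo_10346, had 558 RPKM in worker 1, 1342 in worker 2 and 111 in the queen, and missed the rule only by the limit of 100 RPKM in the queen. On the other side Cflo_10343 was higher in the queen, at 0.696 RPKM in worker 1, 5.17 in worker 2 and 15.4 in the queen, so the pattern did not reach it. Cflo_10343 and Cflo_10346 were taken up here after their values were seen.

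The worker that was on top was not used by the rule either. In 12 of 14 neighbouring pairs of members (85.7%) the same worker was the higher one, worker 1 in 4 pairs and worker 2 in 8. Among the 187 neighbouring pairs of the other features this was so in 118 (63.1%), with worker 1 on top in 29 and worker 2 in 89. After median-of-ratios scaling the share was 85.7% for members, with worker 1 on top in 12 pairs and worker 2 in 0, and 86.6% for the others, with worker 1 on top in 155 and worker 2 in 7. After scaling worker 1 was the higher one in 88.8% of all members and 91.8% of all the others. Most pairs then have the same worker on top in both groups. The scaled shares therefore cannot show whether the difference as deposited holds. The median gap between the log2 worker ratios within a pair was 0.83 for members and 0.92 for the others, with or without scaling. The pairs share libraries and depth, and their number is small.

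Feature length was recovered for 161 of 161 members and 1202 of the 1221 others. Members had a median of 1083 bases, with quartiles of 559 and 1766, against 965 bases (quartiles 632 and 1563) in the others. The shortest member was Cflo_14438 with 113 bases, at 467 RPKM in worker 1, 1899 in worker 2 and 86.3 in the queen, from 353, 2955 and 165 reads. The longest was Cflo_06037 with 4336 bases, at 25.2 RPKM in worker 1, 38.7 in worker 2 and 4.32 in the queen. Members made up 12.9% of the shortest length class (26 to 626 bases), 7.37% from 629 to 977 bases, 12.6% from 978 to 1577 bases and 14.4% of the longest (from 1579 bases). These 4 classes hold nearly equal numbers of the 1363 features with a length.

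**Figure D5:**
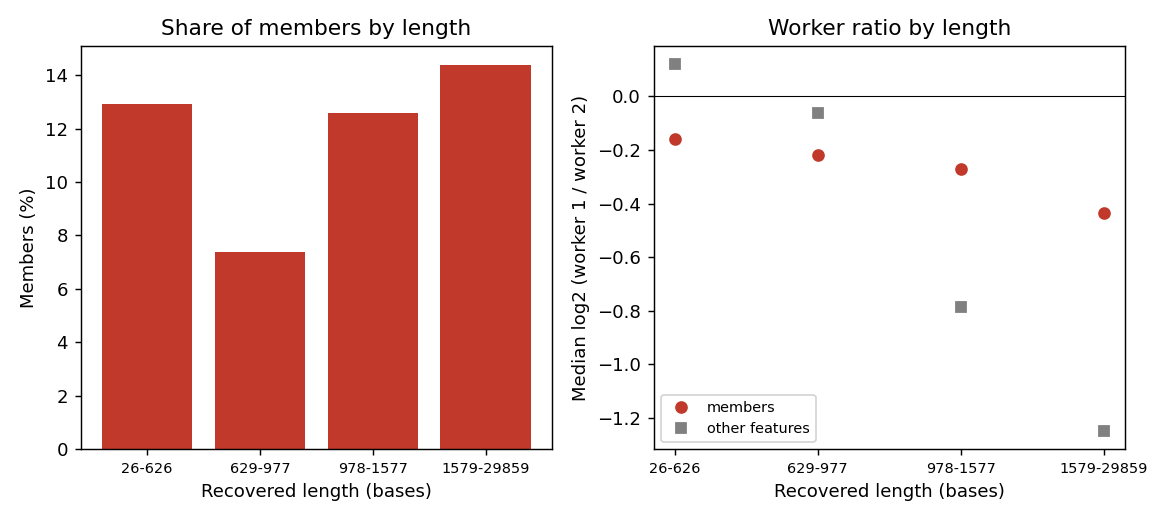
Left, percent of members in each class of recovered length (bases) of the 1363 features with a length and both workers at 10 RPKM or more. Right, median log2 ratio of worker 1 to worker 2 per class for members (circles) and other features (squares), which passes from -0.16 to -0.44 in members and from 0.12 to -1.25 in the others.

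Worker 1 stood lower against worker 2 in longer features. From the shortest to the longest class the median log2 ratio was -0.16, -0.22, -0.27 and -0.44 in members. In the other features it was 0.12, -0.06, -0.79 and -1.25. After median-of-ratios scaling the medians were 1.97, 1.91, 1.86 and 1.69 in members and 2.25, 2.06, 1.34 and 0.88 in the others, so which of both lies nearer to equal levels in the longest class turns with the scaling. Members were also more abundant than the other features in both workers. The medians were 77.4 against 24.7 RPKM in worker 1 and 79.0 against 41.2 RPKM in worker 2. The rule itself favours high worker values among members. The part of level in the median worker ratios was not tested.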

How the data were processed

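Poly(A) RNA of whole ants was sequenced in 3 strand-marked libraries. The authors deposited 1 table of RPKM values with a column per library, per the file headers. The submitters' processing notes name the aligner STAR 2.5.0b. For genome build, annotation, read counting and filters, the sources used here give nothing.

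Read totals were recovered from the steps of the values, since a low RPKM value is a whole number of reads over a whole length. Lengths from 20 to 30000 bases were tried in turn, and the first that made all reads of a feature whole, allowing for the 6 digits printed, was taken unless 0.05 or more such hits were expected by chance. In 500 simulated features 92.6% got their true length and 7.4% that length divided by a common factor. Lengths and reads are inferences. Where a factor was lost, reads are too few and intervals too wide.

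The members, and the lists described, were chosen with earlier results of these data known. Named features are the 8 highest members by the lower worker, the 8 with the widest gap above 0, those at 0 in the queen, the 3 most uneven each way between workers, the 3 nearest the 4-fold limit on each side, the top 2 runs of IDs, the 3 highest in the queen, and the shortest and longest. No model was fitted, and no p-value is given. Alternatives covered scaling, pseudocounts, minimums, folds and leaving out a worker. Median-of-ratios factors used features above 0 in all libraries with a mean of at least 1 RPKM. The analysis ran in Python 3.11.15 with pandas 2.3.3, numpy 2.4.6 and scipy 1.17.1.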

Additional observations from a re-analysis of the deposited data

How the results depend on the processing

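The rule took 161 features as deposited, 556 with median-of-ratios scaling, 255 when libraries were rescaled leaving out the 20 most abundant features, 524 without a worker minimum, 92 at 8-fold and 260 at 2-fold. Leaving out a worker gave from 216 to 600. The median worker to queen difference of members, 3.48 on the log2 scale, was 2.71 at a pseudocount of 5, 5.09 with median-of-ratios scaling and 3.97 with the rescaling, and from 3.19 to 3.67 without 1 worker. The members at least 4-fold apart between workers, 26, were 69 after median-of-ratios scaling. The members' share of the RPKM sum without the 20 most abundant features was 16.6% in worker 1 and 0.636% in the queen, and 0.617% in the queen over numbered IDs only. Without Cflo_06752 and Cflo_02738, an alternative chosen after seeing the data, it was 5.47% in worker 1 and 10.5% in worker 2. Part of these moves is arithmetic. A fixed factor per library shifts every ratio between libraries alike, and a larger pseudocount shrinks log2 differences. A looser fold or minimum can only add features. The cause of the rest, and of the unlike library factors, was not tested. The worker to queen difference kept its sign in the 36 named features in the 6 alternatives computed, which the rule largely fixes, while the order of the workers turned in 17 with median-of-ratios scaling. With that scaling, an alternative added after seeing the data, the log2 median of worker 1 over worker 2 in the longest class turned to 1.69 in members and 0.88 in the others. No paired analysis was possible because the queen has 1 library. Counting error limits the queen values of the 30 members with under 10 reads there, although the queen's library had the highest read total.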

Other observations

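Of the numbered features, 9 met every part of the rule except the limit of 100 RPKM in the queen. The most abundant of them by its lower worker was Cflo_15057, at 4454 RPKM in worker 1, 3814 RPKM in worker 2 and 733 RPKM in the queen. The widest gap was that of Cflo_16295, at 2301 RPKM in worker 1, 9465 RPKM in worker 2 and 202 RPKM in the queen, where the lower worker was 11.4-fold the queen. Both were picked after their values were seen. A further 52 features failed only by the worker minimum and had a lower worker value from 5 to under 10 RPKM. The number of all features in that range is not given here. One of the 3 closest to the worker minimum, Cflo_03566, was at 9.82 RPKM in worker 1, 133 RPKM in worker 2 and 0.0947 RPKM in the queen. Of the 23 tRNA, rRNA, snRNA, mir and other unnumbered features with at least 10 RPKM in both workers, 0 met the values of the rule. Among the 1382 numbered features at the same minimum 11.6% did, so a count of 0 among so few says little.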
